A study of Mus musculus with 60 samples.

Results

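The brain voltage-gated sodium channel genes Scn1a, Scn2a, Scn3a, Scn8a, Scn2b, Scn3b and Scn4b were followed in the prefrontal cortex of young mice. These 7 of the 18088 genes in the deposited table were chosen by name, by matching gene identifiers to symbols in GENCODE release M21, a rule that uses no measured value. All 7 passed the filter on low values. The study asked how early fluoxetine or lithium changes the cortex of mice with a mutant NMDA receptor subunit. Het mice carried 1 copy of Grin2b with the C456Y missense change (Grin2b+/C456Y), and WT mice carried none. All mice were of the C57BL/6J strain, and the prefrontal cortex was taken on postnatal day 25. Pups received fluoxetine, lithium or vehicle through the milk of their mother between postnatal days 3 and 24, so the dose that reached each pup was not measured here. The 6 groups were Het fluoxetine, Het lithium, Het vehicle, WT fluoxetine, WT lithium and WT vehicle, each with 5 female and 5 male libraries, 60 altogether. Replicates are numbered in the labels with no animal or litter named, so p-values measure the spread between these samples, which may share a litter.

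Voltage-gated sodium channels open when the membrane depolarises and carry the inward current of the action potential. Each channel has a large pore-forming alpha subunit (here the products of Scn1a, Scn2a, Scn3a and Scn8a) and smaller beta subunits (Scn2b, Scn3b, Scn4b) that modify gating, surface expression and cell adhesion. In forebrain, Scn1a is known for its role in parvalbumin interneurons, and its loss causes Dravet syndrome. Scn2a serves excitatory neurons and the young axon initial segment, the stretch of axon where spikes start, while Scn8a takes over the mature initial segment and the nodes of Ranvier. Scn3a is mostly a channel of the embryonic and newborn brain. The Scn2b and Scn4b proteins are bound to alpha subunits by disulfide bonds, Scn3b is not, and Scn4b is known for resurgent sodium current and for high levels in striatum.

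Scn1a, Scn2a and Scn3a lie near each other on chromosome 2 (GRCm38, GENCODE M21): Scn1a at chr2:66270778-66440840 on the minus strand, Scn2a at chr2:65620771-65767447 on the plus strand and Scn3a at chr2:65457118-65567627 on the minus strand. Scn2a and Scn3a are 53143 bases apart. Scn8a is at chr15:100869858-101045938, plus strand. The beta subunit genes are all on the plus strand of chromosome 9, with Scn2b at chr9:45117782-45130070, Scn4b 8324 bases beyond it at chr9:45138395-45154152, and Scn3b at chr9:40269217-40291618. The alpha subunit genes of chromosome 2 also share long stretches of coding sequence, which bears on how reads are told apart between them. Of all 31-base words in the longest transcript, 9.78% in Scn1a, 12.02% in Scn2a and 12.3% in Scn3a also occur in a transcript of another sodium channel gene, against 0.631% in Scn8a and 0% in each beta subunit gene. No source used here says how reads from shared stretches were divided, so part of the signal of these 3 genes could be exchanged between them.

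RefSeq (GRCm38.p6) gives upstream windows for 5 of the 7 genes, and Scn3a and Scn3b have none in the table. The windows of Scn1a, of a downstream start of Scn2a and of Scn8a are shown, 3 of those with a motif match. The windows shown are the 250 bases before the start, less 3 bases of Scn1a that M21 places in its first exon. Capitals mark the motifs found. The Scn2a and Scn8a windows lie inside the M21 spans of their genes, and whether they hold an exon was not tested.
Scn1a, chr2:66440841-66441087, minus strand: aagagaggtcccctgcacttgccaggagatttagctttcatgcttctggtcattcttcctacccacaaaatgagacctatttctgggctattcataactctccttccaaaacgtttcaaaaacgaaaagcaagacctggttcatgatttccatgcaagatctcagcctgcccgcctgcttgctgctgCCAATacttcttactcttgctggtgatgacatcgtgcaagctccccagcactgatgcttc
Scn2a, chr2:65668436-65668685, plus strand: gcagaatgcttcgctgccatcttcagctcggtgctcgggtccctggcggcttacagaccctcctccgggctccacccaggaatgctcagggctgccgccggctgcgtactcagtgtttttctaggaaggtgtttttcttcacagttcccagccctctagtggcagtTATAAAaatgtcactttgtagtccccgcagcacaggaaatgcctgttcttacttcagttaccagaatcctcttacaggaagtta
Scn8a, chr15:100870395-100870644, plus strand: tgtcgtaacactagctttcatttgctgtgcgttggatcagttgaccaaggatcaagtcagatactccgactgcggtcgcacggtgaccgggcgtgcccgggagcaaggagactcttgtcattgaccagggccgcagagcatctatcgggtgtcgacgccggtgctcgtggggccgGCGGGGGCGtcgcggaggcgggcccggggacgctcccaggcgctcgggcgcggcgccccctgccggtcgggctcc
Both strands were searched for the TATA box (TATAAA), the CCAAT box (CCAAT), the GC box (GGGCGG), the cyclic AMP response element (TGACGTCA) and the TGACG inside it, part of the RE1 site (TTCAGCACC), and an Egr site with T (GCGTGGGCG) or with G (GCGGGGGCG). The Scn1a window held CCAAT, which is in 33.9% of all 32851 windows of this length, the Scn2a window held TATAAA, which is in 12.4%, and the Scn8a window held GCGGGGGCG, which is in 2.57%. No motif was found in all 3. Their GC content was 47.4% for Scn1a, 53.2% for Scn2a and 68.0% for Scn8a, against a median of 52.4% over all windows. These matches describe letters only.

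The recovered depth was 23901635 to 37769417 reads per library. The cortical glutamatergic marker Slc17a7 was abundant in every library, at 38828 to 68012 normalised reads. Grin2b itself averaged 18492 ± 1959 in Het vehicle and 17330 ± 1494 in WT vehicle (SD, n = 10 each), which does not check the genotype, since a missense change need not alter the amount of RNA. Libraries that stand apart touch the results below. Earlier work on these data found a group of pseudogenes low in 9 of the 10 Het fluoxetine libraries (all but male replicate 1) and in WT vehicle female replicate 2, a set taken over here without measuring those pseudogenes again. Base composition also differed between libraries: over 12472 genes, the correlation of a library's deviations with the GC content of the gene was -0.756 in WT lithium male replicate 5 and -0.509 in WT vehicle female replicate 2. It lay between -0.467 and -0.154 in Het fluoxetine (median -0.363) and between -0.220 and 0.354 in Het vehicle (median 0.173), so the ranges overlapped. A negative value means that genes poor in GC read higher there.

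Levels between genes are compared per kilobase of the longest transcript, as normalised reads per kilobase. In WT vehicle, Scn2b was highest at 1589 ± 137, followed by Scn2a at 1071 ± 119, Scn8a at 895 ± 98.97 and Scn3b at 845 ± 24.4 (SD, n = 10). Scn1a followed at 430 ± 53.7, then Scn4b at 269 ± 77.6 and Scn3a at 166 ± 17.7. The same order of means held in all 6 groups. Scn2b stood above every Scn2a library in WT vehicle, with a lowest value of 1383 against a highest of 1338 for Scn2a. The ranges of Scn2a and Scn8a overlapped, as did those of Scn8a and Scn3b, of Scn1a and Scn4b, and of Scn4b and Scn3a. Every library measured all these genes, so overlapping ranges do not settle their order within a library, which was not tested. The embryonic channel gene Scn3a thus had the lowest level per length at this age, with 1178 to 2299 reads per library behind it. Over all 60 libraries, the highest value was 1.63 to 1.81 times the lowest for 6 of the genes, and 9.70 times for Scn4b.

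**Figure D1:**
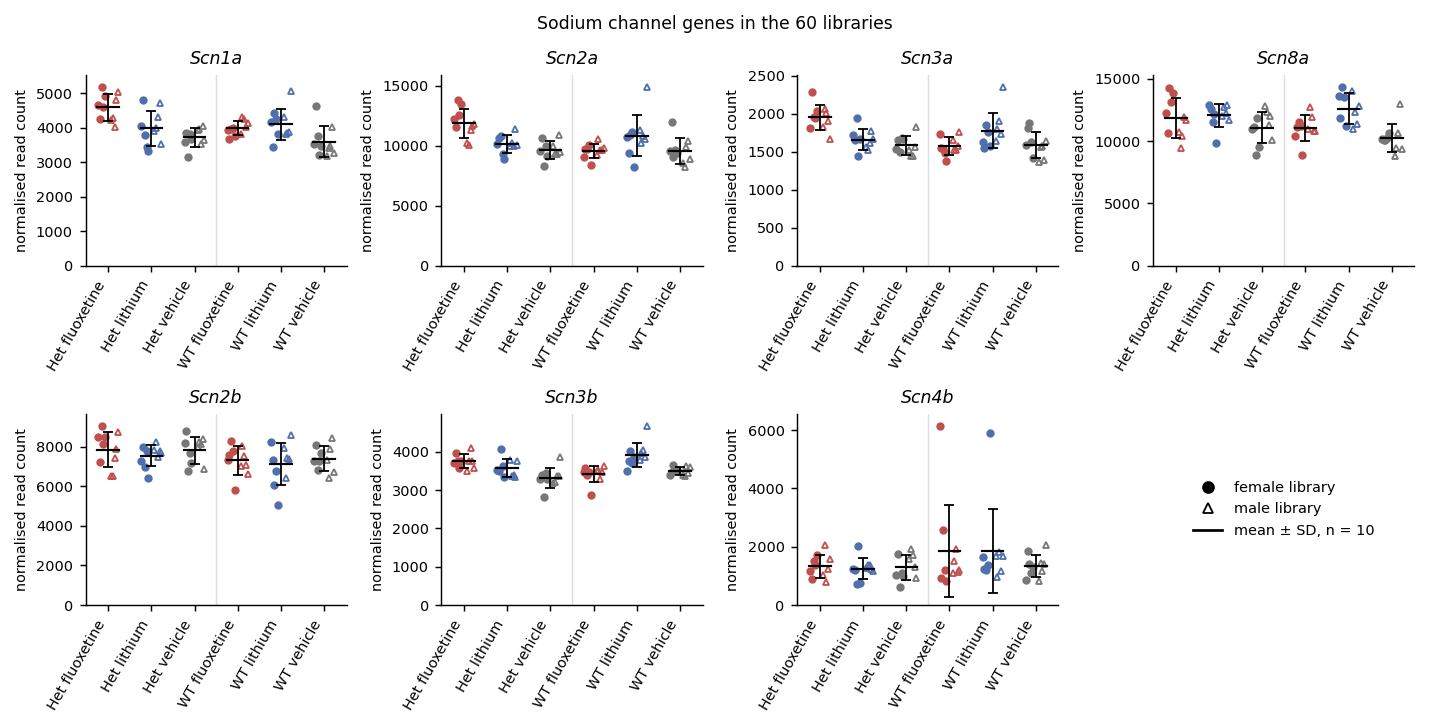
Normalised read count of each sodium channel gene (vertical axis, from 0) in the 6 groups (horizontal axis), with 1 symbol per library, filled circles for females, open triangles for males, and bars for mean ± SD (n = 10). Scn1a, Scn2a and Scn3a sit highest in Het fluoxetine, and 2 WT libraries stand far above the rest for Scn4b, at 6128 and 5894.

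Without a drug, no difference between Het and WT was detected for any of the 7 genes. Scn2a averaged 9664 ± 736 in Het vehicle and 9569 ± 1064 in WT vehicle, and Scn1a 3723 ± 266 in Het vehicle and 3603 ± 450 in WT vehicle (SD, n = 10 each). By limma, 0 of 7 passed an adjusted p of 0.05 in a comparison that called 0.590% of the genes tested, 0 had an unadjusted p under 0.05, and edgeR called 0. The log2 folds (Het over WT) ran from -0.08 for Scn3b to 0.11 for Scn8a. Intervals show what this design could miss: the 95% interval for Scn2a was -0.10 to 0.14, while for Scn4b it was -0.61 to 0.47.

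Under fluoxetine, Het mice had higher levels of 3 of the 4 alpha subunit genes and of 1 beta subunit gene than Het mice on vehicle. Scn1a, Scn2a and Scn3a each rose by 22.6% to 23.5% and Scn3b by 13.0%, while Scn8a, Scn2b and Scn4b did not pass the test. Scn1a ranged over 4014, 4641 and 5186 (lowest, median, highest) in Het fluoxetine, against 3156, 3743 and 4067 in Het vehicle. All but 1 of the Het fluoxetine libraries lay above the highest Het vehicle library. The log2 fold was 0.30 (SE 0.06, limma adjusted p = 0.000105), with 10 of 10 libraries above the vehicle mean of their sex. Scn2a ranged over 10040, 11746 and 13853 in Het fluoxetine, against 8346, 9527 and 10878 in Het vehicle. Again the groups overlapped little, with 8 of 10 Het fluoxetine libraries above every Het vehicle library, and 4 of the 5 females were above every male. Its log2 fold was 0.29 (SE 0.06, limma adjusted p = 9.86e-05). Scn3a, the channel gene of early development, ranged over 1669, 1949 and 2285 in Het fluoxetine, against 1438, 1550 and 1821 in Het vehicle. Here too 8 of 10 Het fluoxetine libraries were above the Het vehicle range. The log2 fold was 0.30 (SE 0.06, limma adjusted p = 4.21e-05). Scn3b ranged over 3488, 3759 and 4102 in Het fluoxetine, against 2824, 3333 and 3876 in Het vehicle, where 1 high Het vehicle library, male replicate 5, overlapped most of the Het fluoxetine group. Its log2 fold was 0.18 (SE 0.04, limma adjusted p = 0.00069).

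These 4 of 7 stand beside a background of 39.0% of all tested genes called in either direction, and 19.1% called higher. The median log2 fold was 0.18 over the 7 genes and 0.00 over all genes tested. Scn8a averaged 11852 ± 1575 in Het fluoxetine and 11072 ± 1257 in Het vehicle (SD, n = 10 each), a log2 fold of 0.10 with a 95% interval of -0.03 to 0.22. Scn2b averaged 7856 ± 896 in Het fluoxetine and 7832 ± 679 in Het vehicle, a log2 fold of 0.00 with an interval of -0.13 to 0.13. Scn4b had a log2 fold of 0.06, with a wide interval of -0.48 to 0.60. In a bulk sample, fewer cells of a type and less RNA per cell cannot be told apart, and the same holds for more.

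**Figure D2:**
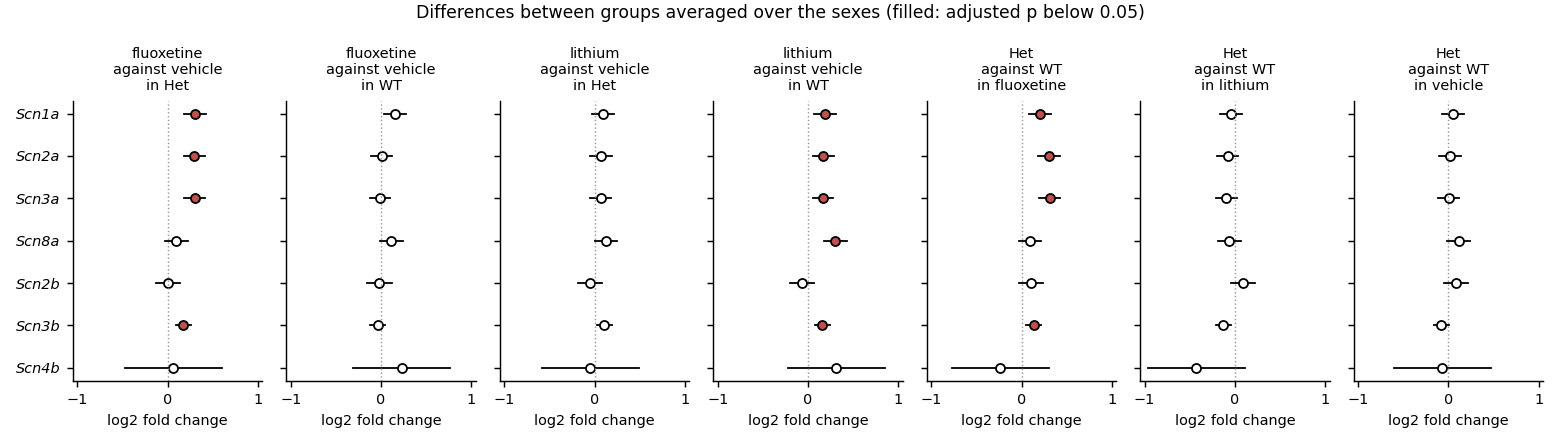
Log2 fold change (horizontal axis) of each sodium channel gene in 7 comparisons averaged over the sexes, with 95% intervals as lines and filled points where the limma adjusted p was below 0.05. Filled points appear in Het on fluoxetine, in WT on lithium and for Het against WT under fluoxetine, and the interval of Scn4b is wide in every panel.

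The genes that rose in Het on fluoxetine are those with the lowest GC content, 42.1% for Scn3a, 43.3% for Scn1a, 43.4% for Scn2a and 47.8% for Scn3b, while Scn8a (50.8%), Scn2b (50.5%) and Scn4b (54.5%) are richer. The median over genes tested was 49.4%. Across the 60 libraries, the level of Scn3a correlated with the library's GC trend at -0.80, that of Scn2a at -0.75, that of Scn1a at -0.67 and that of Scn3b at -0.44, against -0.15 for Scn8a and Scn2b and 0.14 for Scn4b. These correlations are a description, and the points share library depth and base composition. After a GC correction all 4 genes were still called higher, at smaller log2 folds: 0.19 for Scn1a, 0.18 for Scn2a, 0.16 for Scn3a and 0.14 for Scn3b (limma adjusted p from 0.0041 to 0.014), in a fit that called 3494 of the 17810 genes tested, against 6952 without the correction. With a model term for the 10 libraries low in pseudogenes, 9 of them Het fluoxetine, 0 of 7 genes were called by limma, as were 49 of the 17810 genes tested, and log2 folds were 0.08 for Scn1a, 0.08 for Scn2a, 0.20 for Scn3a and 0.13 for Scn3b. With that term the fold rests on the 1 Het fluoxetine library outside the set, male replicate 1, and on WT vehicle female replicate 2, the 1 library of the set outside Het fluoxetine. In Het fluoxetine male replicate 1, Scn1a was 4231, above every Het vehicle library. Scn3a was 1830 there, just above the highest Het vehicle library at 1821, and Scn2a was 10234, inside the Het vehicle range. The 4 of 4 endothelial markers fell in the same comparison, with a summed level of 3052 to 4149 in Het fluoxetine and 3731 to 5937 in Het vehicle. Of all 17810 genes tested, 3545 were called lower there. Of the GABAergic markers 1 of 6 rose and 2 fell, and of the parvalbumin interneuron markers 1 of 6 fell. Of the cortical glutamatergic markers 2 of 6 fell, with sums of 48797 to 67906 in Het fluoxetine and 58810 to 84769 in Het vehicle, and 0 of 5 microglial markers were called by limma. Endothelial markers also fell where 0 of the 7 sodium channel genes were called, 3 of 4 in WT on fluoxetine and 1 of 4 in Het on lithium. None of these markers was at 0 in any library, and their part in the result in Het on fluoxetine was not tested.

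**Figure D3:**
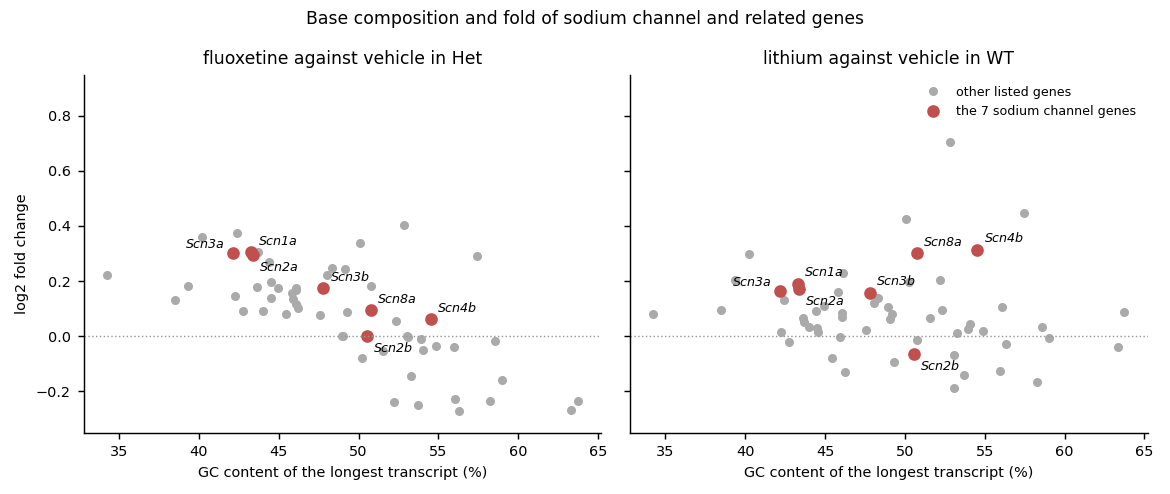
Log2 fold change (vertical axis) against GC content of the longest transcript in percent (horizontal axis) for the 7 sodium channel genes (large points) and for the other listed genes of the channel pathway (small points), in Het on fluoxetine on the left and WT on lithium on the right. On the left Scn3a (42.1%) and Scn2b (50.5%) are at folds of 0.30 and 0.00, and Scn8a and Scn4b, richer in GC, lie above Scn2b. On the right Scn8a and Scn4b are at 0.30 and 0.31 with GC contents of 50.8% and 54.5%, and Scn4b was not called by limma.

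**Figure D4:**
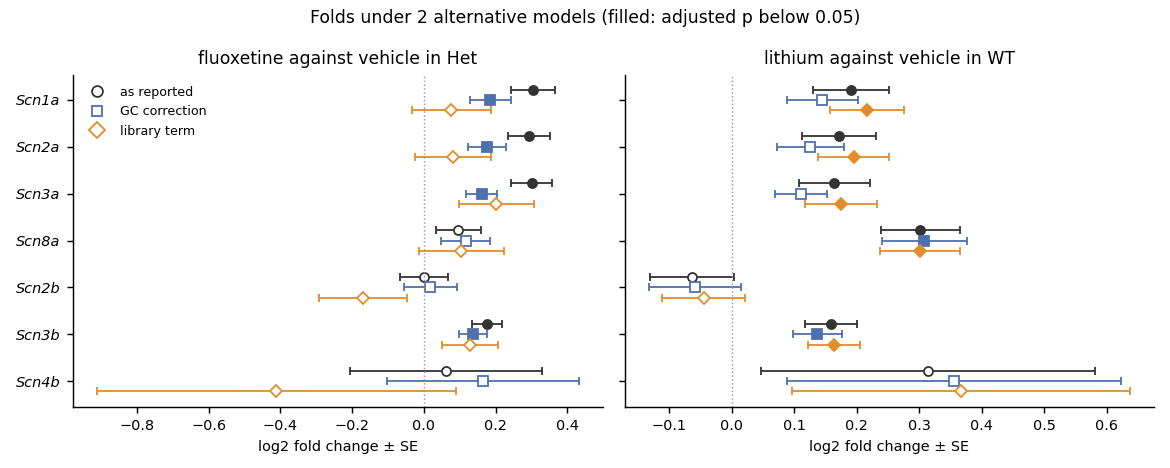
Log2 fold change ± SE (horizontal axis) of each sodium channel gene as reported, after GC correction and with the library term, in Het on fluoxetine on the left and WT on lithium on the right, with filled symbols at a limma adjusted p below 0.05. On the left no symbol is filled with the library term, and on the right Scn8a and Scn3b are filled in all 3 models.

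In WT mice none of the 7 genes passed the same test under fluoxetine. Scn1a averaged 3993 ± 206 in WT fluoxetine and 3603 ± 450 in WT vehicle (SD, n = 10 each), with 9 of 10 WT fluoxetine libraries above the vehicle mean of their sex. Its log2 fold of 0.16 had a limma adjusted p of 0.105. Without WT vehicle female replicate 2 or without WT vehicle male replicate 4, Scn1a was called. Scn2a averaged 9582 ± 598 in WT fluoxetine and 9569 ± 1064 in WT vehicle, and Scn3a 1570 ± 117 in WT fluoxetine and 1584 ± 169 in WT vehicle. This comparison called 8.43% of all genes, and edgeR called 0 of 7. At an unadjusted p under 0.05 there was 1 of the 7, beside 3888 of all 17810 genes tested.

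The fluoxetine response itself differed between the genotypes for 3 genes. The interaction (Het response minus WT response, log2) was 0.31 for Scn3a (SE 0.08, limma adjusted p = 0.0045), 0.29 for Scn2a (SE 0.08, limma adjusted p = 0.0099) and 0.21 for Scn3b (SE 0.06, limma adjusted p = 0.007). For Scn1a it was 0.15 (SE 0.09, limma adjusted p = 0.211), so a difference in response was not shown for that gene. The interaction called 24.0% of all genes, and 11.9% of all genes with a higher response in Het. After GC correction 1 of the 7, Scn3b, was still called by limma, in a fit that called 1328 of 17810 genes, and with the library term 0 of 7 and 8 of 17810 were, against 4272 of 17810 in the fit above.

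The contrast of genotypes under fluoxetine gave the same 4 genes, and it shares the Het fluoxetine libraries with the drug comparison. Scn2a ranged over 10040, 11746 and 13853 in Het fluoxetine, against 8367, 9666 and 10580 in WT fluoxetine, and Scn3a over 1669, 1949 and 2285 in Het fluoxetine, against 1382, 1538 and 1760 in WT fluoxetine. For Scn3a, 9 of 10 Het libraries lay above every WT library. Log2 folds (Het over WT) were 0.31 for Scn2a, 0.31 for Scn3a, 0.20 for Scn1a and 0.13 for Scn3b, all with SE from 0.04 to 0.06 and limma adjusted p from 3.59e-05 to 0.0079. The background was 39.5% of genes in either direction and 19.6% higher. Under the library term 0 of 7 were called by limma, with 7 of all 17810 genes against 7042 without the term, and the fold of Scn1a turned to -0.03. After GC correction Scn1a was not called, at 0.08 (limma adjusted p = 0.418).

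In WT mice on lithium all 4 alpha subunit genes and Scn3b were higher than on vehicle, with the largest fold among the 5 in Scn8a. Scn8a, the channel gene of the mature initial segment and nodes, rose by 23.3%, and the other 4 by 11.6% (Scn3b) to 14.2% (Scn1a). Scn8a ranged over 10981, 12576 and 14335 in WT lithium, against 8769, 10108 and 12984 in WT vehicle. The overlap came from 1 high WT vehicle library, male replicate 4, and every WT lithium library was above the vehicle mean of its sex. The log2 fold was 0.30 (SE 0.06, limma adjusted p = 0.000533). Scn3b ranged over 3497, 3869 and 4667 in WT lithium, against 3372, 3497 and 3661 in WT vehicle, with 9 of 10 WT lithium libraries above all WT vehicle libraries. Its log2 fold was 0.16 (SE 0.04, limma adjusted p = 0.0051). The other 3 genes were close to the threshold. Scn1a ranged over 3442, 4031 and 5068 in WT lithium, against 3180, 3481 and 4646 in WT vehicle (log2 fold 0.19, SE 0.06, limma adjusted p = 0.0218). Scn2a ranged over 8262, 10785 and 14908 in WT lithium, against 8232, 9475 and 11956 in WT vehicle (log2 fold 0.17, SE 0.06, limma adjusted p = 0.0328). Scn3a ranged over 1546, 1746 and 2351 in WT lithium, against 1360, 1583 and 1880 in WT vehicle (log2 fold 0.16, SE 0.06, limma adjusted p = 0.0333). For each of these 3 genes the groups overlapped over most of their range, and the highest value was WT lithium male replicate 5.

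The 5 of 7 called compare with 19.2% of all genes in either direction and 9.34% higher in WT on lithium. Scn2b averaged 7131 ± 1073 in WT lithium and 7396 ± 636 in WT vehicle, a log2 fold of -0.06 with a 95% interval of -0.20 to 0.07, and Scn4b had a log2 fold of 0.31 with an interval of -0.22 to 0.85. Leaving out 1 library at a time kept Scn8a and Scn3b called in 20 of 20 fits, Scn1a in 17, Scn3a in 12 and Scn2a in 10. The count was 2 without WT lithium male replicate 5, without WT lithium female replicate 3 or without WT vehicle female replicate 4. It was 3 without WT lithium female replicate 4, or without WT vehicle female replicate 1, female replicate 5 or male replicate 1. After GC correction, with 3445 of 17810 genes called, Scn8a (log2 fold 0.31) and Scn3b (0.14) stayed called and the other 3 were not, and a fit to the compared groups alone also called 2 of the 7, with 1278 of 17810 genes called against 3420 in the fit to all groups.

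Cell type markers moved in the same comparison, where 1757 of all 17810 genes tested were called lower. All 5 microglial and all 4 endothelial markers fell, with 4 of 6 astrocyte and 3 of 4 meningeal fibroblast markers, while 2 of 6 parvalbumin interneuron markers rose, Pvalb by 0.34 and Cox6a2 by 0.26 on the log2 scale. By limma, 0 of 6 glutamatergic and 0 of 6 GABAergic markers were called. The summed microglial level was 4285 to 6513 in WT lithium and 6391 to 7813 in WT vehicle, and the summed endothelial level was 2394 to 3870 in WT lithium and 3913 to 5034 in WT vehicle. None of the markers was at 0 in any library, and the part of cell makeup in the sodium channel result was not tested.

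In Het mice lithium called 0 of the 7 genes by limma and 0 by edgeR, in a comparison that called 0.983% of all genes. At an unadjusted p under 0.05 there were 2 of the 7, Scn8a and Scn3b, beside 2450 of all 17810 genes tested. Scn8a averaged 12052 ± 918 in Het lithium and 11072 ± 1257 in Het vehicle, a log2 fold of 0.13 (SE 0.06, limma adjusted p = 0.358). Scn3b averaged 3577 ± 243 in Het lithium and 3326 ± 262 in Het vehicle, a log2 fold of 0.11 (SE 0.04, limma adjusted p = 0.214). The interaction of genotype and lithium called 0 of 7 (0.0674% of all genes), by edgeR also 0, with 0 at an unadjusted p under 0.05. For Scn8a it was -0.17 (SE 0.09, limma adjusted p = 0.461), so the lithium response was not shown to differ between WT and Het. Under lithium, Het against WT likewise called 0 of 7 by limma (0.0281% of all genes) and by edgeR. At an unadjusted p under 0.05 there was 1 of the 7, beside 2031 of all 17810 genes tested. It was Scn3b, at a log2 fold of -0.13 (SE 0.04, limma adjusted p = 0.206).

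No difference in average level between females and males was detected. Averaged over the groups, 0 of 7 differed between females and males by limma or edgeR, where 0.107% of all genes were called, and folds (female over male, log2) ran from -0.03 for Scn3b to 0.01 for Scn3a. Within sexes the calls were uneven. In Het on fluoxetine, 5 of 7 were called in females (background 25.2%) and 1 of 7 in males (15.8%). In WT on lithium, 1 of 7 was called in females (11.8%) and 5 of 7 in males (20.8%). Scn8a on fluoxetine in Het had log2 folds of 0.30 in females and -0.10 in males, a difference of 0.40 (SE 0.13, limma adjusted p = 0.471). Scn3a on lithium in WT had 0.01 in females and 0.32 in males, a difference of -0.31 (SE 0.11, limma adjusted p = 0.0642), and Scn2a a difference of -0.30 (SE 0.12, limma adjusted p = 0.0834). By limma, 0 sex differences of the 7 genes passed over the 7 drug and genotype comparisons. At an unadjusted p under 0.05 there were 6. They were 2 of 7 each in WT on lithium, in Het on fluoxetine and for Het against WT under fluoxetine. Of all 17810 genes tested, 5210, 1225 and 1705 were under that unadjusted p, in this order. At an adjusted p under 0.05, 2 passed without WT lithium female replicate 4. The number was 1 without WT lithium male replicate 1, WT lithium male replicate 4 or WT vehicle female replicate 5. In WT on lithium, 9.64% of all genes had a called sex difference, against 0% in the other 6 comparisons. The number called there, 1716 of 17810, was 1 when 3 libraries were left out (replicate 5 of each sex in WT lithium, and female replicate 2 in WT vehicle), 7 after GC correction, 280 with the library term and 0 with the compared groups alone.

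Genes that work with sodium channels moved in both directions in Het on fluoxetine, where 39.0% of all genes were called and 19.1% were called higher. Of the other channel family genes, 5 of 7 were measured, of which 2 rose and 1 fell. Scn7a rose by 0.36 and Scn9a by 0.37 (log2). In the sodium leak channel complex, which sets the resting sodium conductance, 3 of 4 measured genes rose, the pore gene Nalcn by 0.19, Unc80 by 0.22 and Fam155a by 0.18. Among 16 regulators of sodium channels, 7 rose and 2 fell. Fgf12, an intracellular homologue of fibroblast growth factors that binds the channel tail, rose by 0.31 and the ubiquitin ligase gene Nedd4l by 0.17. The calmodulin gene Calm3 fell by 0.24 and Csnk2b, a subunit of casein kinase 2, by 0.15. Of 17 genes of the axon initial segment and node, 8 rose and 3 fell. Ank3, whose product ankyrin-G anchors the channels at the initial segment, rose by 0.25, Ank2 by 0.24, the potassium channel gene Kcnq3 by 0.27 and the adhesion gene Cntnap2 by 0.14. The 3 that fell, named after their values were seen, were Sptbn4, which encodes the spectrin partner of ankyrin-G, Trim46 and Cntnap1. Of 9 neuronal splicing regulators 3 rose and 3 fell, among them Ptbp2 (0.22) and Nova2 (-0.27). Medians over the lists were 0.36, 0.19, 0.09, 0.08 and -0.02 in this order, beside 0.00 over all genes.

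In WT on lithium 19.2% of all genes were called and 9.34% were called higher. By limma, none of the 5 other channel genes passed the test, 1 of 4 leak channel genes rose (Unc79, 0.20), and 3 of 16 regulators rose while 2 fell, with Nedd4l at 0.23 and Fgf14 at 0.21. In the axon initial segment list 2 of 17 rose, the potassium channel genes Kcna1 (0.42) and Kcna2 (0.16), and 2 of 9 splicing regulators rose, Srrm4 (0.21) and Rbfox2 (0.07). Ank3 was not among them, at 0.14 (limma adjusted p = 0.0673). Medians over the lists, in the same order, were 0.30, 0.07, 0.02, 0.07 and 0.07, beside 0.00 over all genes.

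Scn4b was the most variable of the 7 genes, with a coefficient of variation of 62.6% over the 60 libraries against 8.30% to 13.0% for the others. In WT lithium it ranged over 964, 1499 and 5894 (lowest, median, highest), in WT fluoxetine over 829, 1189 and 6128, and in WT vehicle over 836, 1352 and 2060. The Het groups were alike in range, with 784, 1304 and 2052 in Het fluoxetine, 712, 1250 and 2038 in Het lithium, and 632, 1198 and 1913 in Het vehicle. The high values were WT lithium female replicate 5 and WT fluoxetine female replicate 1, and WT fluoxetine female replicate 3 followed at 2560. These libraries were also high in markers of striatal projection neurons. The summed level of 7 such markers was 27964 in WT lithium female replicate 5 and 19815 in WT fluoxetine female replicate 1, against a median of 5535 in WT vehicle. The dopamine receptor gene Drd2 was at 605 and 571 there, beside a median of 41.1 over all libraries. Residuals from the group means of Scn4b correlated with those of the 7 markers at 0.77 to 0.91, a description over 60 libraries of 1 dissected region. For the 6 parvalbumin interneuron markers these correlations spread from -0.21 for Kcnc2 and -0.07 for Pvalb over 0.13 for Cox6a2 and Kcnc1 to 0.44 for Syt2 and 0.76 for Tac1. By limma, 0 of the 7 striatal markers were called in Het on fluoxetine or in WT on lithium. Without WT lithium female replicate 5 and 2 other libraries, the log2 fold of Scn4b in WT on lithium was 0.14 in place of 0.31. How much tissue next to the cortex the libraries held was not tested.

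**Figure D5:**
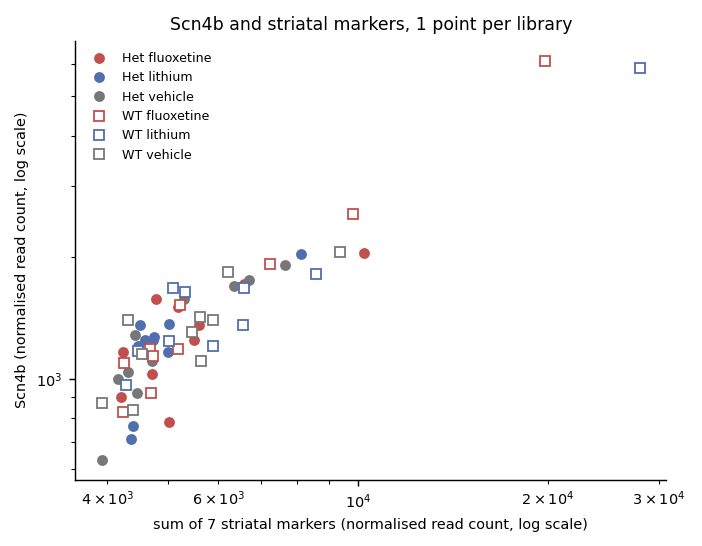
Scn4b (vertical axis) against the sum of 7 striatal projection neuron markers (horizontal axis), both as normalised read counts on log scales, with 1 point per library, filled circles for Het, open squares for WT and colours for treatment. The 2 highest Scn4b libraries, at 6128 and 5894, are also the 2 highest for the markers.

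The genes also differed in which others they followed. Among the 7, Scn1a and Scn2a varied most alike, with a Pearson r of 0.82 over 60 libraries and 0.76 after removal of group means. Scn3a and Scn3b followed each other at 0.70 and 0.62, and Scn8a and Scn2b at 0.48 and 0.72. These were not separate pairs, since Scn2a also followed Scn8a at 0.65 and 0.68, and Scn2b at 0.58 and 0.70. Scn1a followed Scn8a at 0.63 and 0.62, and Scn2b at 0.39 and 0.47. Before removal of group means, Scn2a also followed Scn3a at 0.67. Scn4b stayed below 0.28 with every other member on both measures. Of 14932 genes compared, those most like Scn2a included Opcml (0.96) and Cntn1 (0.96), and those most like Scn1a included Rasal2 (0.88) and Grin2a (0.88). For Scn3a they were Pgap1, Ppm1e and Mga (0.86 to 0.88), for Scn8a Hspa12a, Atp8a2 and Mycbp2 (0.85 to 0.86), for Scn2b Dpy19l1, Parm1 and Tppp (0.82 to 0.83), and for Scn3b Bcat1, Ppm1e and Gria1 (0.78 to 0.81). The genes most like Scn4b included Rasd2 (0.91) and Ppp1r1b (0.90), of which Ppp1r1b is on the striatal list. These correlations share depth and base composition of the libraries. Opcml and Cntn1 have GC contents of 42.9% and 43.6%, beside 43.4% for Scn2a. Some other genes named here were further off, with Dpy19l1 at 42.1% beside 50.5% for Scn2b, and Ppp1r1b at 61.0% beside 54.5% for Scn4b. The part of base composition in these correlations was not tested.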

How the data were processed

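The authors deposited a signal for each gene, named normalised read counts in the report, which is read counts divided by 1 size factor per library, as the values themselves show. Dividing each column by its smallest value above 0 gave whole reads (within 0.001) for 100% of values. Libraries were made with a TruSeq stranded mRNA kit per the labels' protocols. The submitters' processing notes name Salmon 0.11.2, DESeq2 1.19.11, R 3.6.0 and GRCm38, without roles, and no source used here says if counting was by strand. Genes on the opposite strand overlap the spans of Scn1a (Gm13630), Scn3a (Gm13595), Scn2b (Gm10684) and Scn3b (Gm47266). Of these, Gm13630 is in the deposited table and the others are not. Where exons overlap, reads cannot be told apart without strand, and overlap of exons was not tested. Of 18088 identifiers, 18077 were found in GENCODE M21.

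As the values are normalised, the test was limma 3.58.1 (R 4.3.3, trend and robust) on log2(value + 1) for the 17810 genes that reached 10 in 5 or more libraries. It fitted 12 means of genotype, treatment and sex (48 residual degrees of freedom) to all libraries, with Benjamini-Hochberg adjustment over all genes in each contrast and a threshold of 0.05. Fold changes on this scale understate low genes. On simulated data for Het on fluoxetine (17810 genes), the fit called 44.8% of genes changed 1.2-fold and 94% of those changed 1.5-fold. Changes of the size reported here could thus be missed in that setting. The simulation raised only 67 genes at each of these folds, lowered none and held no trend shared within a library. It changed only genes above a minimum mean. The spread of each gene was taken over all libraries, so differences between groups counted as spread. Far more genes were called in the data, so these shares are not the rates of the reported comparison. The alternatives tried were TMM factors (the scaling of edgeR) in place of the deposited scaling, no filter (18083 genes), a pseudocount of 5, the compared groups alone, a replicate block, edgeR 4.0.16 on recovered reads, a loess GC correction (span 0.3), a term for the 10 libraries that earlier work found low in pseudogenes, 3 libraries left out together, and each library left out. Members, lists and alternatives were chosen with earlier results of these data known. Of the other lists, up to 4 called genes with the smallest p are named per contrast. Some genes that these rules select, and 1 sequence, are not reported here.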

Additional observations from a re-analysis of the deposited data

Results flagged for a closer look

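Of 84 sets of 5 libraries (7 genes in 12 groups by sex), 8 held a library far from the other 4, and chance alone gives about 1 in 20 groups. Scn2a was high in WT lithium male replicate 5 (14908, the others 10239 to 11338), in WT vehicle female replicate 2 (11956, the others 9069 to 9640) and in Het lithium male replicate 4 (11440, the others 10025 to 10270). The first pair are also the 2 libraries with the most negative GC trend, -0.756 and -0.509. Scn4b was high in WT lithium female replicate 5 (5894, the others 1205 to 1643), the library with the highest striatal marker sum. Scn2b was low in Het vehicle male replicate 5 (6863, the others 8014 to 8404), where Scn3b was high (3876, the others 3177 to 3371). Scn3b was low in Het vehicle female replicate 3 (2824, the others 3286 to 3449) and in WT fluoxetine female replicate 5 (2876, the others 3400 to 3574).

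The fluoxetine response differed between Het and WT in the limma interaction for Scn2a (0.29), Scn3a (0.31) and Scn3b (0.21). These differences were called in 40 of 40 fits that left out 1 library each, and none was called with the library term.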

How the results depend on the processing

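TMM factors, no filter, a pseudocount of 5 and edgeR kept every count of called sodium channel genes within 1.5 times. With the library term the counts were 0 in Het on fluoxetine, 0 for Het against WT under fluoxetine, 0 for the interaction of genotype and fluoxetine and 1 (Scn1a) in WT on fluoxetine, and Scn1a for Het against WT under fluoxetine reversed to -0.026 (limma adjusted p = 0.99). The GC correction gave 2 in WT on lithium and 1 for the interaction, and the compared groups alone gave 2 in WT on lithium. Leaving out 3 libraries gave 1 in WT on fluoxetine. Over all genes, calls in WT on fluoxetine were 1559 of 17810 with the library term and 2102 of 17810 with the 3 libraries left out. Leaving out 1 library at a time gave 2 to 5 in WT on lithium, 0 to 1 in WT on fluoxetine and 0 to 2 for the sex interactions, and changed no other count. The cause of these changes was not tested. For single called genes, 482 fits kept direction and call, 41 lost the call and 1 reversed. The replicate block gave 4 called genes in Het on fluoxetine, 5 in WT on lithium, 4 for Het against WT under fluoxetine and 3 for the interaction, and changed no call of these genes. By residual correlation, samples of the same number and sex did not deviate together (150 pairs, -0.337 to 0.32, 24 above 0.1). Of 600 pairs of the same sex and other numbers, 114 were above 0.1. The labels do not say what the numbers mean, and these correlations over all genes cannot exclude a shared litter or batch. The fewest reads behind a value were 620, for Scn4b.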
